A study of Ovis aries with 30 samples.

Results

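The comparison described here set 6 CORT term fetuses against 8 Control term fetuses of sheep and asked what raising the ewe's cortisol does to gene expression in the fetal epicardial adipose tissue, the fat depot that lies directly on the heart muscle. The ewes of the CORT fetuses received cortisol at 1 mg/kg/day, the ewes of the Control fetuses received none, and no fetus was itself treated. These 14 fetuses were chosen by their titles from 30 animals in the series. The other 16 animals, 2-week-old lambs, entered here only in the shared normalization and in a test of the difference between ages. The study describes its higher-dose model as a continuous infusion, whereas the ewes of the lambs were infused overnight at a lower dose. The labels list the same gestational day as the start of infusion for the ewes of CORT fetuses and CORT lambs. The study ties no start day to these fetuses. The sex of these fetuses and whether any of them were twins are not given in the sources used here. Nothing states that each fetus came from its own ewe, so the p-values measure the spread among these samples.

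In large newborn mammals such as sheep, much of the perinatal fat is of the brown or beige type, whose adipocytes burn fatty acids in mitochondria and release the energy as heat through the uncoupling protein UCP1. Cortisol reaches its target genes through the glucocorticoid receptor NR3C1, and HSD11B1 and HSD11B2 set the local level of active hormone by regenerating or inactivating it. The late rise of cortisol in the fetus prepares lung, liver and fat for birth, and in adult tissues glucocorticoids act on fat storage, on lymphocytes and on macrophages.

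RNA was hybridised in 1 colour to an Agilent sheep array of 60-base probes, and all values below are log2 intensities of the background-corrected, quantile-normalized signal unless stated otherwise. On the 14 fetal arrays the median foreground intensity lay between 172.1 and 240.4 against a median local background between 39.5 and 46, and the scanner software placed 72.6% to 83.5% of the spots well above background. Of 15008 probes, 12872 were bright enough to be tested. A gene name could be given to 1656 probes, and 883 named genes were tested, so most of the array is represented by probes without a gene name. The fetal arrays lay on 2 slides, with Control fetuses 1 to 4 and CORT fetuses 1 to 3 on slide 1 and the others on slide 2. Both treatments were therefore present on each slide. The defining adipocyte genes UCP1, PPARG, LPL, FABP4, PLIN1 and LEP were well above background on all 14 arrays.

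One library stood apart before any comparison was made. In Control fetus 2, TNNC2 (the calcium-binding troponin C of fast skeletal muscle) had a value of 17.20 against a mean of 7.23 in the other Control fetuses, and MYL11 (the fast skeletal myosin regulatory light chain) had 18.24 against 9.22. The first principal component of the 14 fetuses held 30.7% of the variance and placed Control fetus 2 at -51.6, with all others between -14.9 and 14.9. The summed linear intensity of the 7 tested fast muscle genes was 473700 in Control fetus 2, between 1657 and 3799 in the other Control fetuses and between 2004 and 5032 in CORT fetuses. Of the tested probes, 277 were higher in this fetus by more than 1 on the log2 scale than the mean of the other Control fetuses, and 255 were lower. SCD, HBB, CD3E and MHCII-DRB1 were among the genes that were lower. The counts over all probes and over the named genes are therefore given with and without it, and the counts of a gene list wherever they differed.

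The sequences that follow are the 60-base probes on which the results turn, read 5′ to 3′ from the deposited array annotation. They are the probes of a thermogenic marker, of a growth factor, of a growth factor receptor, of a mitochondrial assembly factor and of the muscle transcript that marks Control fetus 2.
UCP1: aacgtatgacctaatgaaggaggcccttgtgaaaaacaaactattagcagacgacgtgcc
BMP6: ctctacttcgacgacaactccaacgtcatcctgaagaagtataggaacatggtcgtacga
IGF-IIR: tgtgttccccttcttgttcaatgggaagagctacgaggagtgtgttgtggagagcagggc
COX15: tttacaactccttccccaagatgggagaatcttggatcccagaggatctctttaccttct
TNNC2: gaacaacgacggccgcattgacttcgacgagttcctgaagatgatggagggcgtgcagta

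No probe separated CORT from Control fetuses once the p-values were adjusted over the array. Limma's moderated test with Benjamini-Hochberg adjustment called 0 probes higher and 0 lower among 12872, the smallest adjusted p being 0.415, and 305 probes (2.37%) had an unadjusted p under 0.05, 157 higher (1.22%) and 148 lower (1.15%) in CORT fetuses. Without Control fetus 2 the adjusted count was again 0 and the smallest adjusted p was 0.208. The unadjusted count was then 514 (3.99%), with 215 higher (1.67%) and 299 lower (2.32%), so that the number of lower probes rested on this fetus. Both shares, 2.37% and 3.99%, were below the fraction of 0.05 that this threshold passes on average when nothing differs. Of the 305 probes, 219 (71.8%) were also past an unadjusted p of 0.05 without it, none with the opposite sign. Scaling each array to its 75th percentile in place of quantile normalization turned the split into 1333 higher and 205 lower, with 86.7% of the called probes higher against 51.5%, and moved the median change of all probes from -0.01 to 0.27.

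On the log2 scale used here the comparison was precise enough to bound most changes. The distance from the estimate to either end of its 95% interval had a median of 0.18 on the log2 scale over all probes, and for 97.8% of the probes the interval lay within 1 on either side of 0. For 88.2% it lay within 0.5. Among the named genes these shares were 94.7% and 79.8%. A difference of 2-fold or more between the group means of this signal thus lay outside the interval of nearly all the probes measured. Smaller differences were not resolved for many of them. The signal includes an added offset of 50, which draws the changes of dim probes towards 0. For dim probes the interval therefore does not bound the change in transcript level.

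A_70_P006361, a probe without a gene name that had one of the smallest p-values of the comparison, had a change of -0.48 (SE 0.09, adjusted limma p = 0.415), and its exact permutation p was 0.000999. Every CORT fetus (7.59 to 7.8152) lay below every Control fetus (7.8174 to 8.43), although CORT fetus 3 and Control fetus 4 nearly met. Its change in lambs had the opposite sign, 0.54. Another probe with a small p, with a change of 0.36 (SE 0.08), is described in the array annotation as gp91-phox, the catalytic subunit of the phagocyte NADPH oxidase, whereas the 2 probes that the array lists as CYBB, another name of that subunit, gave a change of 0.11 for the brighter one, which was well above background in 3 of 8 Control and 4 of 6 CORT fetuses. These 2 probes were singled out for their p.

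**Figure D1:**
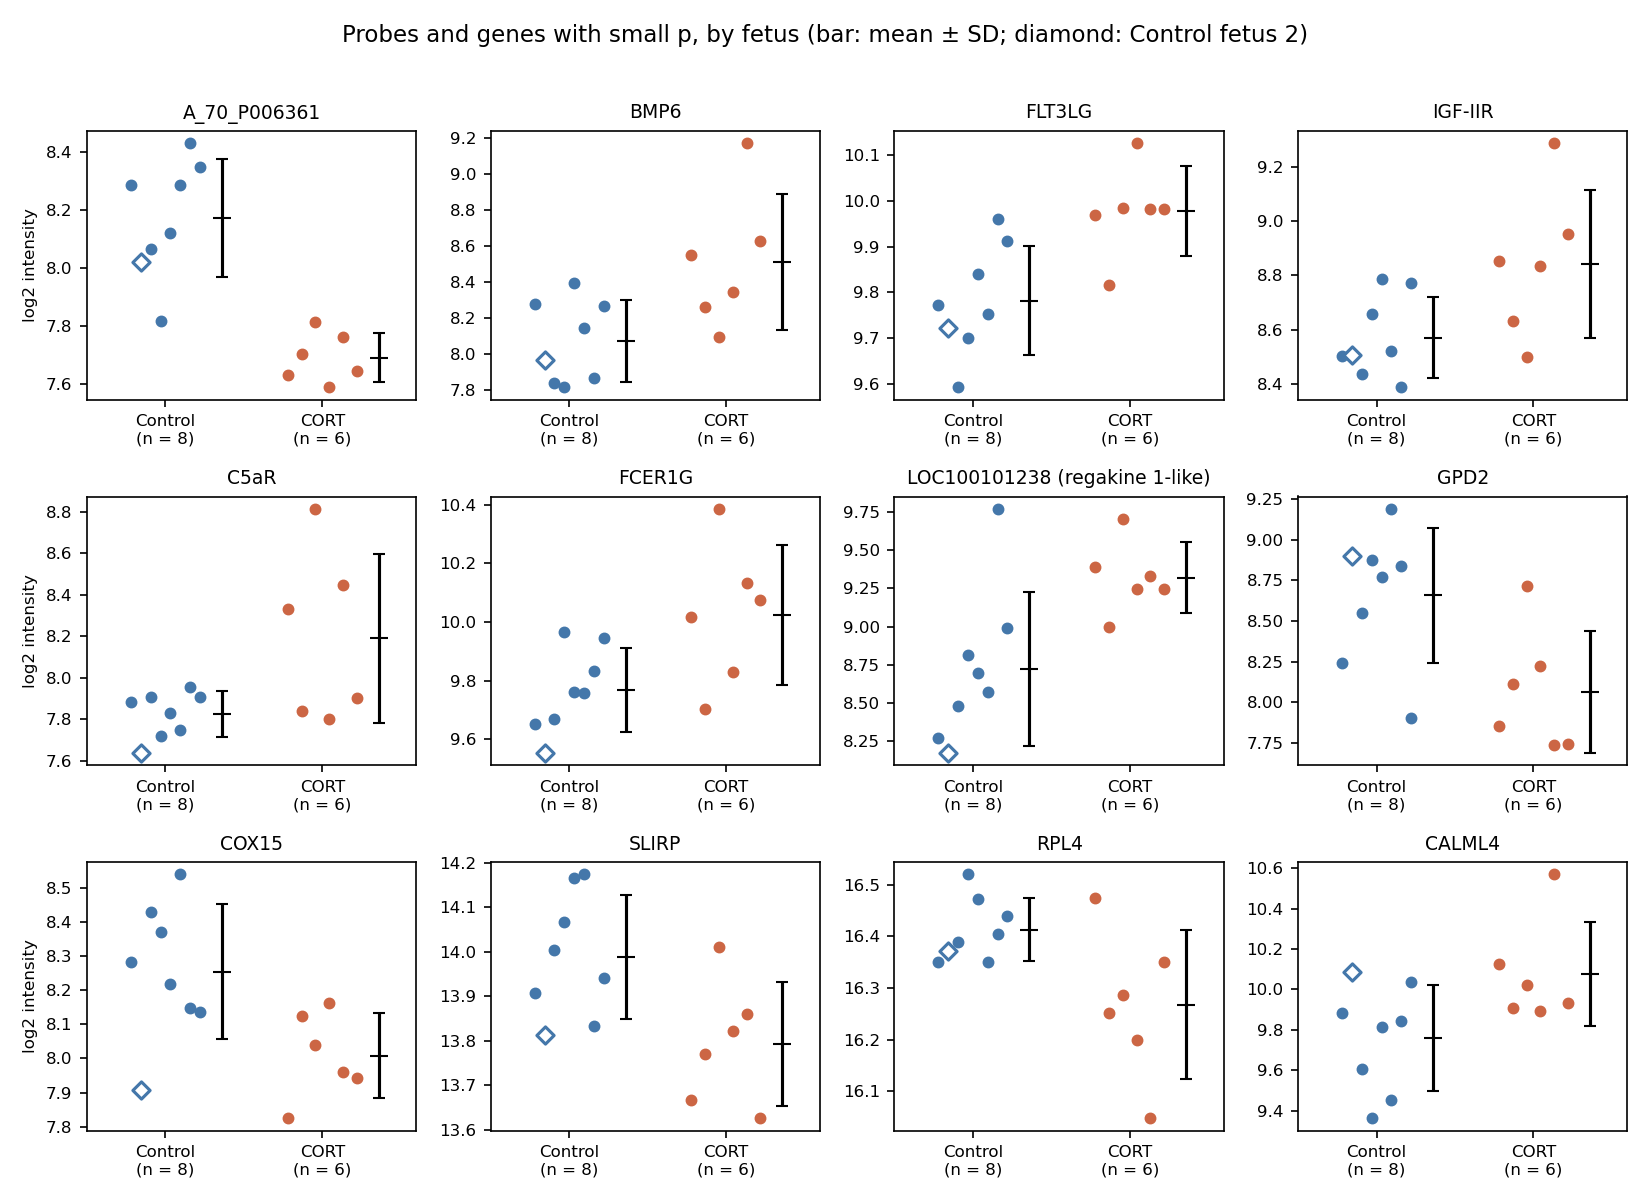
Log2 intensity (vertical axes) of 1 probe without a gene name and 11 named genes in each of 8 Control and 6 CORT fetuses; points are fetuses, bars are the mean ± SD, and the open diamond is Control fetus 2. A_70_P006361 is the plot in which the groups do not overlap, and in BMP6, C5aR and IGF-IIR several CORT fetuses stay within the range of the Control group.

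Among the 883 named genes, 17 (1.93%) had an unadjusted limma p under 0.05, 11 of them higher (1.25%) and 6 lower (0.68%) in CORT fetuses. The share over all probes was 2.37%, and both shares were below the fraction of 0.05 that is passed on average when nothing differs. The median change of the named genes was 0.00. For each of the 17 the adjusted limma p was 0.9999, and the groups overlapped. The exact two-sided permutation test over all splits of the fetuses gave unadjusted p-values from 0.00866 for FLT3LG to 0.0646 for ALDH1A1, and none of the 81 genes named by the rule passed after adjustment over those genes. Without Control fetus 2, 43 named genes (4.87%) were past an unadjusted p of 0.05, 15 higher (1.7%) and 28 lower (3.17%), and 13 of the 17 were among them. The 4 that were not are CD86, SELP, LOC443442 and ALDH1A1. Relative to the median of all probes, the signs of FLT3LG (-0.14), FCER1G (-0.07), CALML4 (-0.0045), ALDH1A1 (-0.27) and GJB2 (0.32) turned under the 75th percentile scaling, and that of RPL4 under cyclic loess.

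BMP6, a bone morphogenetic protein of the transforming growth factor family, lay between 7.81 and 8.39 in Control fetuses (median 8.05) and between 8.09 and 9.17 in CORT fetuses (median 8.45). All 6 CORT fetuses were above the Control mean and 3 were above the highest Control fetus. Its change was 0.44 (95% interval 0.12 to 0.76, exact p = 0.0150), a ratio of 1.36, and the second BMP6 probe had a change of 0.39. BMP6 kept an unadjusted p under 0.05 in all 13 alternatives and in all 14 fits without 1 fetus. Of the 21 tested genes of bone morphogenetic protein, activin and TGF-beta signalling it was the only one past that level, with a median change of 0.05 over the 21 against -0.01 over all probes. Among its relatives BMP7, a factor that drives brown adipocyte differentiation, had 0.27 (exact p = 0.130), INHBA, an activin subunit, had 0.45 (95% interval -0.27 to 1.17) and the receptor TGFBR1 had -0.19 (exact p = 0.0869).

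IGF-IIR, the array's name for the receptor that clears insulin-like growth factor II, lay between 8.39 and 8.79 in Control fetuses (median 8.51) and between 8.50 and 9.29 in CORT fetuses (median 8.84). Of the CORT fetuses 4 were above all Control fetuses, and CORT fetus 3, the lowest, was below the Control median. The change was 0.27 (SE 0.11, exact p = 0.0270), 0.14 on slide 1 and 0.41 on slide 2. The second probe of the same name had 0.20, and a dimmer probe listed as M6P/IGF2R, which names the same receptor, had 0.08 (95% interval -0.07 to 0.22). The ligand IGF2 was 15.56 ± 0.41 in Control (SD, n = 8) and 15.55 ± 0.43 in CORT fetuses (n = 6), a change of -0.01 with a 95% interval from -0.46 to 0.44. Of the 13 tested gene names of this axis, some of them for the same gene, 1 (7.69%) was past p 0.05 with all fetuses. The share was 1.93% of the named genes and 2.37% of all probes. The count was 3 under the 75th percentile scaling. It was 0 under cyclic loess, the processed signal of the scanner software or array weights, and without CORT fetus 5 or 6. Without Control fetus 2 there were 3 (23.1%), against 4.87% of the named genes, and 0 when array weights were also used. Of those 3, the probes listed as IGFR1 and IGF1R (names of the type 1 receptor) had a change of 0.35 and 0.33.

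C5aR, FCER1G and CD86 were the higher genes of the myeloid list. C5aR, the receptor of the complement fragment C5a, lay between 7.64 and 7.95 in Control fetuses (median 7.86) and between 7.80 and 8.81 in CORT fetuses (median 8.12). CORT fetuses 1, 3 and 5 were above all Control fetuses and the other 3 were within the Control range. The change was 0.37 (SE 0.14, exact p = 0.0210), and 0.34 on the second probe. FCER1G, the signalling chain shared by Fc receptors, lay between 9.55 and 9.97 in Control (median 9.76) and between 9.70 and 10.39 in CORT fetuses (median 10.05), with a change of 0.26 (SE 0.10, exact p = 0.0260). Its second probe had a change of 0.19. CD86, a costimulatory molecule of antigen-presenting cells, had a change of 0.17 (SE 0.08), and its second, dimmer probe one of 0.07. Of the 27 tested genes of macrophages, myeloid receptors and MHC class II, 19 had a positive change and 3 (11.1%) were past p 0.05, all higher, against 1.93% of the named genes and 2.37% of all probes, with a median of 0.07. The count was not stable. There were 10 higher genes under the 75th percentile scaling, where the median change of all probes was 0.27, and 5 higher and 1 lower under cyclic loess. There was 1 higher gene under array weights or without CORT fetus 3, and 0 higher and 1 lower with all 30 arrays in one fit. Without Control fetus 2 the list held 2 higher genes and 1 lower (11.1%, against 4.87% of the named genes). The lower gene was CD40, with a change of -0.26. When array weights were also used the list held 0 called genes. The summed intensity of the list ranged from 6225 to 9443 in Control fetuses, Control fetus 2 being the lowest, and from 8234 to 10910 in CORT fetuses. In bulk tissue more cells of a type and more RNA per cell cannot be told apart.

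The other higher genes had varied roles. LOC100101238, annotated as a regakine 1-like chemokine, lay between 8.17 and 9.77 in Control fetuses (median 8.63) and between 8.99 and 9.71 in CORT fetuses (median 9.29). Every CORT fetus was above the Control median, yet Control fetus 7 was higher than all of them. The change was 0.60 (SE 0.20, exact p = 0.0223), 0.93 on slide 1 and 0.27 on slide 2. FLT3LG, the ligand that expands dendritic cell precursors, had the smallest p of all named genes, with 9.78 ± 0.12 in Control and 9.98 ± 0.10 in CORT fetuses and a change of 0.20 (95% interval 0.06 to 0.33, exact p = 0.00866). Of the CORT fetuses 5 were above the highest Control fetus. CALML4, a calmodulin-like protein, had a change of 0.31, LOC443442, a CD1 antigen-presenting molecule, one of 0.16, and SELP, the endothelial and platelet adhesion molecule P-selectin, one of 0.12. SELP was well above background in 3 of 8 Control and 5 of 6 CORT fetuses, and its second probe had a change of 0.08. ALDH1A1, which makes retinoic acid, had a change of 0.24 (exact p = 0.0646) and 0.18 without Control fetus 2.

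Of the 6 lower genes, GPD2, COX15 and SLIRP encode mitochondrial proteins. GPD2, the mitochondrial glycerol phosphate dehydrogenase that passes electrons from glycolysis to the respiratory chain, lay between 7.90 and 9.19 in Control fetuses (median 8.80) and between 7.74 and 8.72 in CORT fetuses (median 7.98). CORT fetuses 1, 5 and 6 were below every Control fetus and CORT fetus 3, at 8.71, was the highest of its group. The change was -0.59 (95% interval -1.01 to -0.17, exact p = 0.0216), a ratio of 0.663, and -0.56 without Control fetus 2. GPD2 was past p 0.05 in 12 of the 13 alternatives and in all 14 fits without 1 fetus. COX15, which makes the heme a of cytochrome c oxidase, lay between 7.91 and 8.54 in Control (median 8.25) and between 7.82 and 8.16 in CORT fetuses (median 8.00). Every CORT fetus was below the Control mean. Its change was -0.24 (SE 0.09, exact p = 0.0233), and -0.29 (SE 0.08) without Control fetus 2, which was the lowest Control fetus. SLIRP, an RNA-binding protein that stabilises mitochondrial messenger RNA, had a change of -0.20 (SE 0.08, exact p = 0.0256).

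COX15 and SLIRP were the 2 genes past p 0.05 among the 11 tested genes of the list named respiratory chain, of which 9 had a negative change. The share called was 18.2%, against 1.93% of the named genes and 2.37% of all probes. The list is mixed. Besides subunits of the chain and of ATP synthase it holds COX15, SLIRP and adenine nucleotide carriers. The chain subunits COX5A and NDUFA12 were not past p 0.05. With the processed signal of the scanner software 0 of the 11 were called, and 1 was under cyclic loess. The median of the 11 was -0.05, and it was 0.06 under cyclic loess normalization, so the direction of the list turned with the scaling. None of the subunits of ATP synthase was past p 0.05, and ATP5PD had the smallest p of them with -0.08 (95% interval -0.22 to 0.07). The adenine nucleotide carriers SLC25A6 and SLC25A4 had a change of -0.13 and 0.24. Of 17 cytosolic ribosomal protein genes 15 had a negative change, with a median of -0.06 and 1 past p 0.05, RPL4, which had a change of -0.14 (SE 0.06), and this median was 0.14 under cyclic loess, where RPL4 had a change of 0.04. The other RPL4 probes had a change of -0.085 and -0.16 in the main fit. Without Control fetus 2 a second ribosomal gene, RPSA, was past p 0.05, with -0.14. EM4e, a transcript for which the array gives no further description, had a change of -0.36 on 1 probe and -0.36 on the other. GJB2, a gap junction protein, had -0.17 on a probe that was well above background in 4 of 8 Control and 0 of 6 CORT fetuses, and -0.01 on its second probe, so that no ratio is given.

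UCP1, the defining gene of brown fat, differed by less than the spread between fetuses. It lay between 13.75 and 15.56 in Control fetuses (median 14.79) and between 14.11 and 15.27 in CORT fetuses (median 14.88). The means were 14.73 ± 0.58 and 14.81 ± 0.43, and the change was 0.08 with a 95% interval from -0.47 to 0.63 (exact permutation p = 0.782). The ranges overlapped over most of their length, and a difference of up to 1.54-fold upwards or 0.722-fold downwards lay within the interval. None of the 7 tested genes of brown fat thermogenesis was past p 0.05, with a median of -0.07. The probes listed as PPARGC1A and pgc1, for the coactivator of mitochondrial biogenesis, had -0.15 and -0.19, and the beta-3 adrenergic receptor ADRB3 had 0.04 (95% intervals including 0 in each case).

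Among genes of fat storage and synthesis, the calls of DGAT1 and SCD depended on Control fetus 2. PPARG, the master regulator of adipocyte differentiation, had -0.07 (95% interval -0.40 to 0.26), leptin (LEP) had -0.17 and lipoprotein lipase (LPL) had 0.21. Of 12 tested adipocyte genes 0 were past p 0.05 by limma with all fetuses and 1 without Control fetus 2, DGAT1, the enzyme of the last step of triglyceride synthesis, which then had a change of -0.24. That is 8.33% of the list, against 4.87% of the named genes called in that fit. With all fetuses DGAT1 had -0.16, and -0.05 on its dimmer probe. The median of the 12 was -0.08, and -0.17 without Control fetus 2. SCD, the stearoyl-CoA desaturase, was 10.87 ± 0.78 in Control and 10.33 ± 0.95 in CORT fetuses. CORT fetuses 1, 5 and 6 had 9.11, 9.74 and 9.61 and the other 3 lay between 11.10 and 11.24, while the Control fetuses other than number 2 lay between 10.67 and 11.51. The change was -0.54 (SE 0.42, exact p = 0.259), and -0.79 (SE 0.34, exact p = 0.0758) once Control fetus 2, at 9.09, was left out. SQLE, a rate-limiting enzyme of cholesterol synthesis, had -0.56 and -0.78 in the same fits. Of the 10 tested lipogenic genes SCD was the only one past the unadjusted limma p of 0.05 without Control fetus 2, and none was with all fetuses. The fatty acid synthase gene FASN had 0.23 (95% interval -0.46 to 0.91).

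CPT1A, which admits long-chain fatty acids to mitochondria for oxidation, also depended on Control fetus 2. It lay between 11.20 and 12.67 in Control fetuses (median 12.24) and between 11.10 and 12.44 in CORT fetuses (median 11.72). Control fetus 2 was the lowest of its group. The change was -0.40 (95% interval -0.91 to 0.11, exact p = 0.154) and -0.54 (SE 0.20, exact p = 0.0385) without it. The muscle isoform CPT1B had 0.06, and the carnitine carrier SLC25A20 had -0.0028 with a 95% interval from -0.33 to 0.32. Of the 4 tested genes of fatty acid oxidation 0 were past the unadjusted limma p of 0.05 with all fetuses. Without Control fetus 2 CPT1A was, which is 25% of the list against 4.87% of the named genes. Of the 10 tested genes of glycolysis and the glycerol phosphate shuttle GPD2 was the only one past p 0.05, and the hexokinase HK1 had 0.19 (exact p = 0.121).

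**Figure D2:**
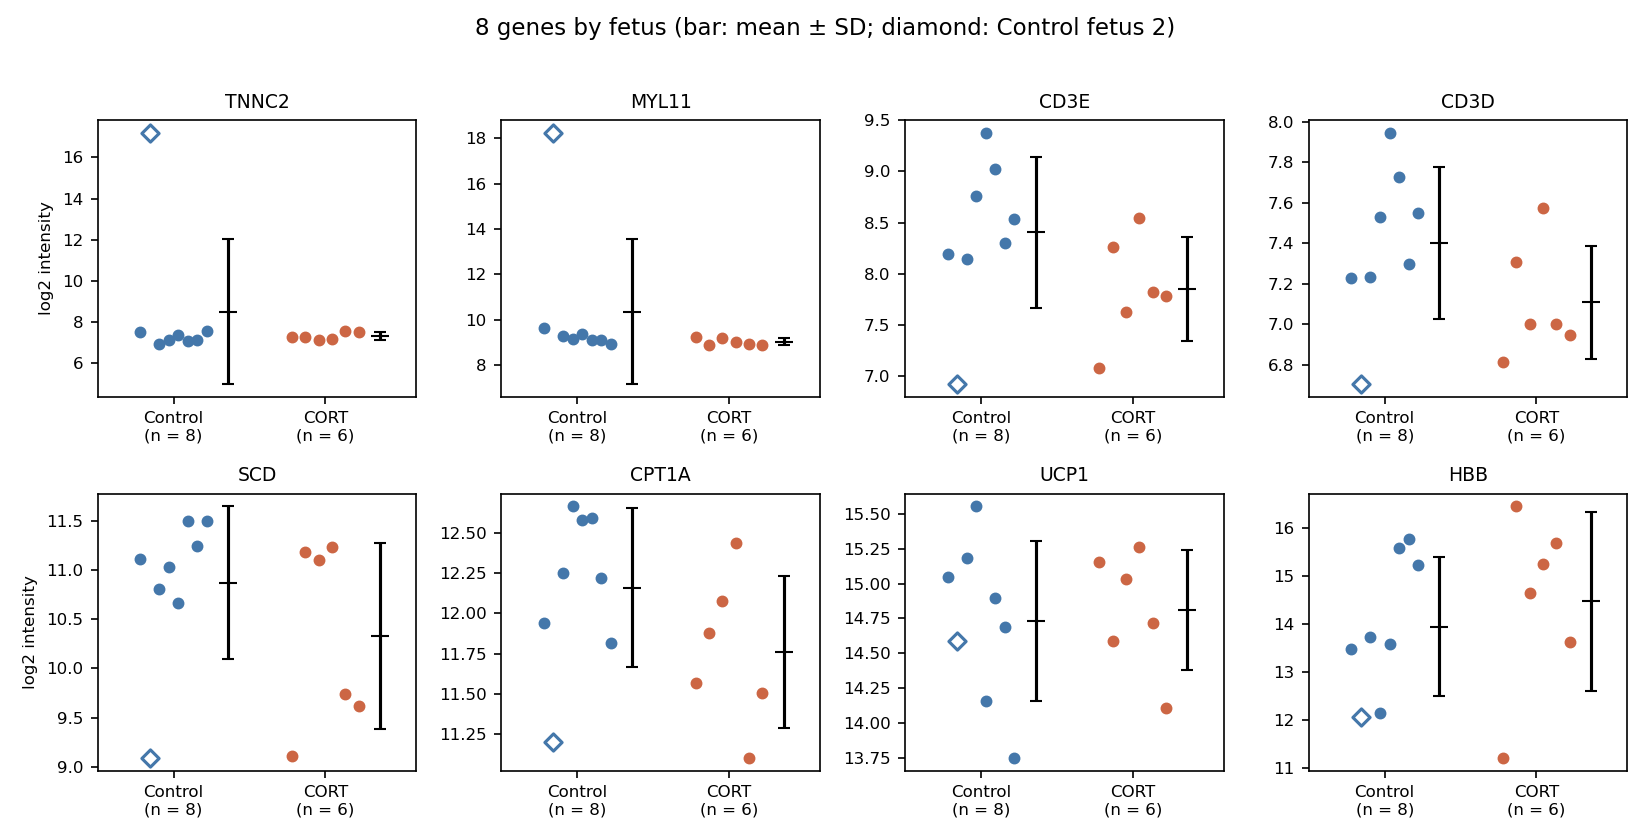
Log2 intensity (vertical axes) of 8 genes in each of 8 Control and 6 CORT fetuses; points are fetuses, bars are the mean ± SD, and the open diamond is Control fetus 2. That fetus is far above all others for TNNC2 and MYL11, and the lowest fetus for CD3E, CD3D and SCD, while UCP1 and HBB overlap between the groups.

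Among the gene lists, that of lymphocytes gained the most calls when Control fetus 2 was left out. CD3E, a chain of the T-cell receptor complex, lay between 6.92 and 9.38 in Control fetuses (median 8.42) and between 7.08 and 8.54 in CORT fetuses (median 7.80). The change was -0.55 (95% interval -1.24 to 0.13, exact p = 0.141). Control fetus 2 had the lowest value of all 14 fetuses. Without it the change was -0.77 (SE 0.24, exact p = 0.0157, adjusted limma p = 0.997), and every other Control fetus lay at or above 8.14. CD3D had -0.29 and -0.39 with and without it. With all fetuses 10 of the 12 tested lymphocyte genes had a negative change, with a median of -0.11, and 1 was past p 0.05, FLT3LG, which was higher. Without Control fetus 2, 5 of the 12 were past p 0.05 and lower, CD3E, CD3D, the T-cell receptor chain TCRD19, the transcription factor LEF-1 and the surface receptor CD5, against 3.17% of the named genes, and the median was -0.16. LEF-1 was well above background in 5 of 8 Control and 1 of 6 CORT fetuses. GNLY, the cytolytic granule protein granulysin, which was on no list, had -0.41 and -0.55.

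These 5 calls were the same in number, 5, when Control fetus 2 was left out and slide was a block or cyclic loess was used, and 4 with array weights. Under array weights with all 14 fetuses 3 lymphocyte genes were lower, and under the 75th percentile scaling the median of the list, relative to that of all probes, was 0.10 and so turned its direction. The summed intensity of the list ranged from 3629 to 4997 in the Control fetuses other than number 2 and from 3570 to 5064 in CORT fetuses, and these ranges overlapped almost fully. The medians were 4297 and 3720. CORT fetuses 1, 3 and 6 lay just below the lowest of these Control fetuses, and CORT fetus 4 lay just above the highest. The sum includes FLT3LG, which was higher in CORT fetuses. The summed intensity of the fast muscle list was 473700 in the fetus with the lowest CD3E. The part of muscle in these values was not tested.

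None of the genes listed as induced by glucocorticoids was past p 0.05 with all fetuses. VDUP1, the thioredoxin-interacting protein TXNIP, whose transcription glucocorticoids raise, lay between 13.19 and 14.65 in Control fetuses (median 13.82) and between 13.65 and 15.24 in CORT fetuses (median 14.14). CORT fetuses 1 and 5 were above all others, and the highest Control fetus was number 2. The change was 0.56 (95% interval -0.01 to 1.12, exact p = 0.0816) and 0.67 (exact p = 0.0251) without Control fetus 2. Of the 8 tested genes of this kind VDUP1 was the only one past the limma p of 0.05 without Control fetus 2, with medians of 0.02 and 0.05. The clock genes MPER1 and PER2 had 0.03 and 0.06, NFKBIA, an inhibitor of NF-kappaB, had 0.23, and CEBPB, a transcription factor of early adipogenesis, had -0.14. The receptor NR3C1 had -0.03 with a 95% interval from -0.19 to 0.12. HSD11B1, which regenerates cortisol, had 0.32 with an interval from -0.34 to 0.98 and opposite signs on the slides (-0.16 and 0.80). A dimmer HSD11B1 probe had 0.12. HSD11B2 had -0.01 with an interval from -0.44 to 0.43.

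Genes of vessels and of the matrix gave few calls. Of 31 tested endothelial and angiogenic gene names, some of them for the same gene, 1 was past p 0.05, SELP, with a median of 0.01. Without Control fetus 2 there were 1 higher name, EDN1, and 2 lower names, ANG-1 and ANGPT1, which stand for the same gene. For the receptors of vascular endothelial growth factor, the probes listed as FLT1 and KDR had -0.06 and -0.08, with 95% intervals from -0.27 to 0.15 and from -0.48 to 0.31. Probes listed under FLT-1 and VEGFR-1, other names of FLT1, were also tested. The probes listed as ANG-1 and ANGPT1, names of the vessel-stabilising ligand angiopoietin 1, had -0.44 and -0.31, and -0.55 and -0.42 without Control fetus 2 (ANG-1 without it, exact p = 0.0291). The vasoconstrictor peptide gene EDN1 had 0.32 and 0.40. Of 15 matrix genes 0 were past p 0.05 and 11 had a positive change, and the median was 0.08 but below that of all probes under the 75th percentile scaling. The small proteoglycans decorin (DCN) and biglycan (BGN) had 0.26 (exact p = 0.0779) and 0.24 (exact p = 0.102).

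Markers of other cells and fluids varied widely among fetuses of both groups. The beta globin gene HBB lay between 12.06 and 15.75 in Control fetuses and between 11.21 and 16.44 in CORT fetuses, a change of 0.53 with a 95% interval from -1.18 to 2.23. Albumin (ALB) ranged from 6.97 to 13.72 and from 6.83 to 12.74. Myoglobin (MB), of heart and slow muscle, had a change of 0.47 (95% interval -0.47 to 1.41), and the smooth muscle gene CNN1 had 0.80 (-0.65 to 2.25). None of the lists of fast muscle, heart and slow muscle, smooth muscle, mesothelium, erythroid cells or plasma proteins held a gene past p 0.05 with or without Control fetus 2. With that fetus the median of the fast muscle list was -0.27 and without it 0.20, where TNNC2 had -1.17 and 0.07. The summed intensity of the erythroid list ranged from 4562 to 55660 in Control and from 2644 to 89620 in CORT fetuses, and that of smooth muscle from 35570 to 94640 and from 44860 to 131500. The part of such cells in the other changes was not tested.

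**Figure D3:**
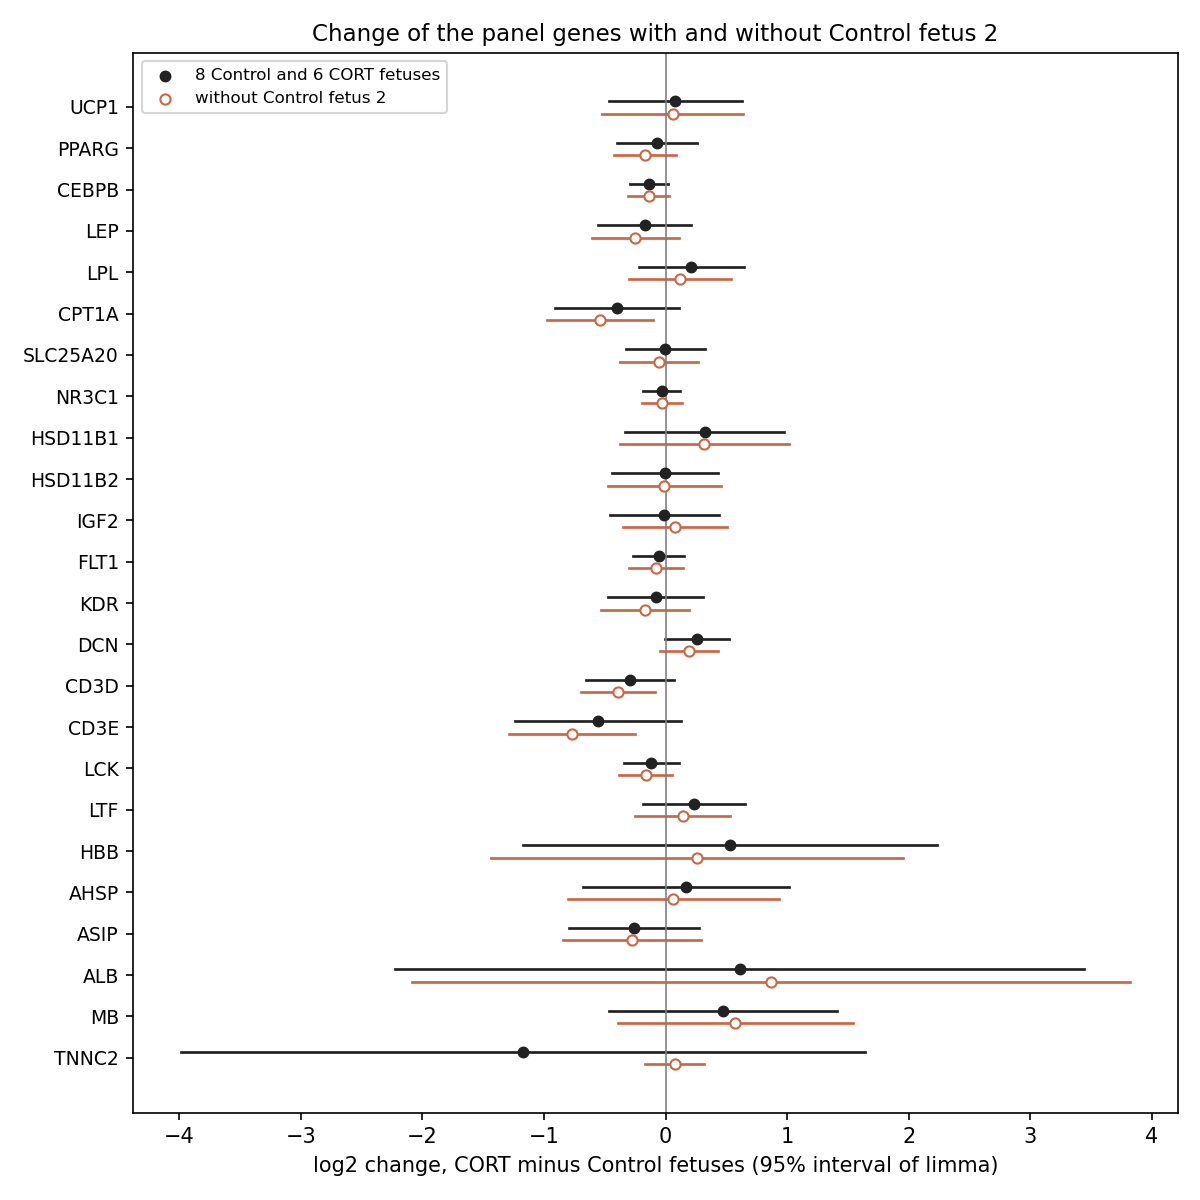
Log2 change from Control to CORT fetuses (horizontal axis) of the panel genes, with the 95% interval of limma, for all 14 fetuses (filled) and without Control fetus 2 (open). The interval of TNNC2 shrinks when that fetus is left out, and those of CPT1A, CD3D and CD3E then no longer include 0.

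The other lists gave no calls or a single one with all fetuses, and without Control fetus 2 the interferon list gained IRF2 (0.20), the cell cycle list gained PCNA and the antioxidant list lost ALDH1A1. The median was 0.13 for 15 interferon response genes (0 past p 0.05), 0.11 for 5 antimicrobial granule proteins (0), 0.01 for 28 cytokines, chemokines and receptors (1, FLT3LG), 0.02 for 5 genes of thyroid and adrenergic signalling (0), 0.04 for 8 immediate early and heat shock genes (0) and -0.02 for 14 cell cycle genes (0). The antimicrobial genes were all positive with all fetuses, and their median was -0.09 without Control fetus 2. PCNA, the DNA polymerase clamp, had -0.23 (exact p = 0.0719) and -0.26 (exact p = 0.0367) without Control fetus 2. Lactotransferrin (LTF) had 0.23 (95% interval -0.19 to 0.65). For 11 antioxidant and detoxification genes the median was -0.05 with 1 past p 0.05, ALDH1A1. The melanocortin antagonist ASIP and the precursor POMC had -0.26 each. Their second probes had -0.21 and -0.31, the latter with an unadjusted limma p of 0.0426.

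**Figure D4:**
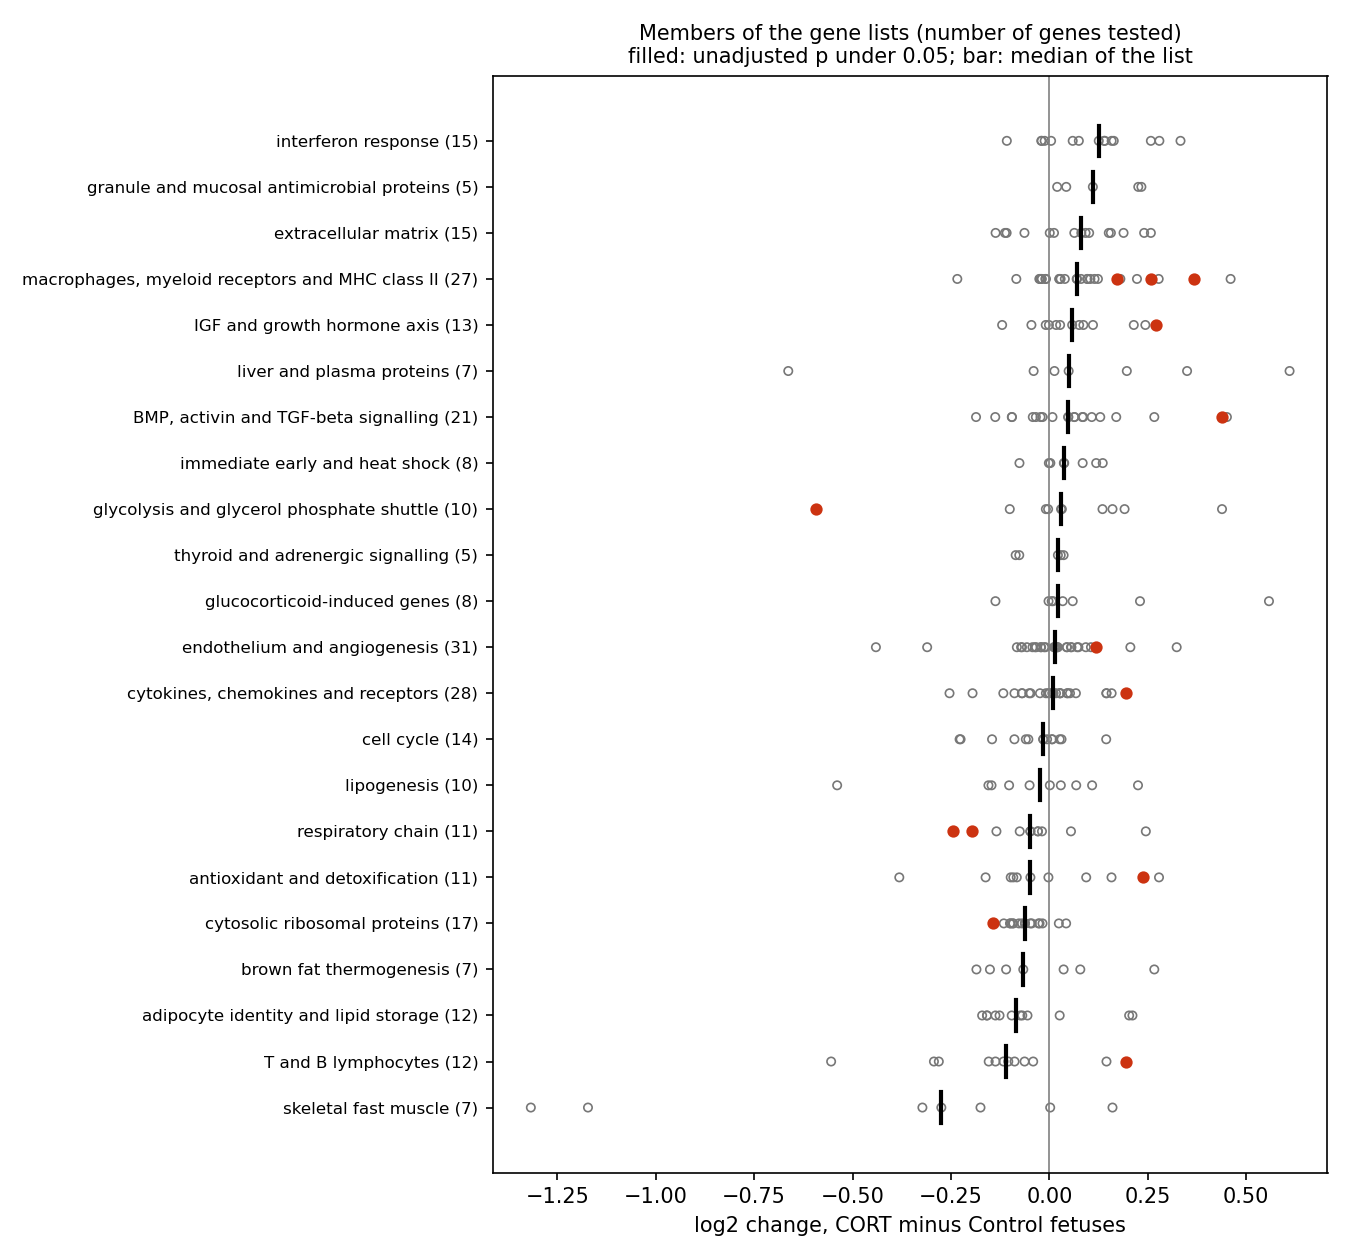
Log2 change from Control to CORT fetuses (horizontal axis) of each tested member of the lists with at least 5 tested genes; filled points have an unadjusted limma p under 0.05 and bars are list medians. Filled points lie on the positive side for the myeloid list and on the negative side for the list named respiratory chain. List medians lie between -0.27 and 0.13.

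The fetal changes were set against those of lambs in one model of all 30 animals, with the limits that the lambs' ewes received 0.5 mg/kg/day and that the labels call the exposures not directly comparable. Over all probes 264 (2.05%) had an unadjusted p under 0.05 for the lamb change less the fetal change, and 0 passed after adjustment. LTF had a change of 0.23 in fetuses and -0.90 in lambs (difference -1.13, SE 0.28, limma adjusted p = 0.9997). ALDH1A1 had a change of 0.24 and -0.35 (difference -0.59, SE 0.16, limma adjusted p = 0.9997), and IGF-IIR one of 0.27 and -0.10 (difference -0.37, SE 0.15, limma adjusted p = 0.9997). ALDH1A1 and IGF-IIR had been named partly for their fetal p. LTF was a panel gene, and the study had already reported it as the most significantly reduced gene in epicardial fat of these lambs. All of these differences are therefore a description.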

How the data were processed

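Scanner files of 14 fetal and 16 lamb arrays were used. Per the labels, 100 ng of RNA was labelled with Cy3, whereas the methods of the study give a larger amount and another dye for its lamb samples. Per the submitters' processing notes the authors extracted spots with Agilent Feature Extraction 10.1.1.1, giving a mean foreground intensity and a median local background intensity. The methods of the study name background correction and quantile normalization in limma. The deposited matrix of log2 values followed the scanner values in lambs (Spearman rho at least 0.9996 across probes) and not in fetuses (rho from -0.0084 to -0.0038), and was used for this check alone. No genome was used, so probes have no coordinates here.

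Here, limma 3.58.1 in R 4.3.3 corrected background by normexp (offset 50), and the 30 arrays were quantile normalized together after outlier spots were removed. Probes at least 10% brighter than the 95th percentile of 77 negative controls on at least 6 arrays were tested with lmFit and eBayes, two-sided, in the 14 fetuses. Named genes were represented by their brightest probe. A gene listed under more than 1 name was counted once for each name. A rule picked 81 of the named genes. They were the 12 of lowest p in each direction, those of each list past p 0.05 (filled up to 2) and a panel of genes. Not all of the 81 are described above. EEF1E1 (-0.24), AT2 (-0.29), MET (-0.22) and SHH (-0.11), among the 12 lower genes, each had an unadjusted limma p above 0.05. Other genes were named after their values were seen. Exact permutation ran over all splits of the fetuses into groups of these sizes. Members, lists and tests were chosen with earlier results of these data known, and gene names used only by the array were added to the lists once its annotation was read. The fit was tested on simulated data. 1 unnamed probe is not reported here. There were 13 alternatives, 14 fits without 1 fetus and 3 settings added after seeing the data. The number of arrays limits precision.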

Additional observations from a re-analysis of the deposited data

Results flagged for a closer look

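Among 162 sets of values, 1 for each of 81 genes in each group, 9 (5.56%) held a fetus whose gap to the nearest other fetus was large against the range of its group (Dixon's test, 95% critical value 0.625 for 6 fetuses and 0.526 for 8). Chance flags about 1 set in 20. The share is not a test against that rate, because it includes fast muscle genes, whose values had already set a Control fetus apart.

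Of these, 5 were in Control fetus 2, which was the highest Control fetus for TNNC2 (17.20), MYL11 (18.24), MYOD1 (8.05, a regulator of muscle differentiation) and IRF2 (7.83, an interferon regulatory factor) and the lowest for SCD (9.09). This fetus had already been set apart by its fast muscle transcripts, and TNNC2, MYL11 and MYOD1 belong to that list. The flags of TNNC2, MYL11 and MYOD1 were therefore not a separate test. The next highest Control fetus had 7.55 for TNNC2 and 9.61 for MYL11. The changes of these genes with and without this fetus were -1.17 and 0.07 for TNNC2, -1.32 and -0.19 for MYL11, -0.18 and -0.06 for MYOD1, 0.14 and 0.20 for IRF2, and -0.54 and -0.79 for SCD.

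CORT fetus 4 was the lowest of its group for LTF (7.15) and for the ribosomal protein gene RPS25 (16.54), and the highest for the natriuretic peptide gene NPPC (6.95). CORT fetus 5 was the highest of its group for CALML4 (10.57, the next being 10.12).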

How the results depend on the processing

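The count of probes past an unadjusted p of 0.05 moved by more than 1.5 times under cyclic loess (376 higher and 276 lower), under the 75th percentile scaling (1333 higher) and with slide as a fixed block (224 lower). With the replicate number as a block it was 279 higher and 276 lower, and 1 higher probe passed the adjusted threshold. The numbers were not taken to pair the fetuses, since the correlations of same-numbered deviations were 0.21, -0.19, 0.41, 0.01, 0.14 and 0.02. Leaving out 1 fetus at a time gave 121 to 215 higher and 98 to 299 lower probes, the lowest without CORT fetus 5, with 248 lower without CORT fetus 3, and 0 to 1 higher and 0 to 0 lower past the adjusted threshold, the 1 being without CORT fetus 2. Without Control fetus 2, with settings chosen after seeing the data, the counts were 269 and 432 with slide as a block, 486 and 508 under cyclic loess and 187 and 231 with array weights. Some changes turned their sign as printed: under the 75th percentile scaling ALDH1A1 had -0.0019, COX15 0.0104, EM4e 0.13 and GJB2 0.58, against a median of 0.27 over all probes, and under cyclic loess RPL4 had 0.038, or 0.0484 without Control fetus 2. Relative to the median of all probes, 12 of the 17 called genes kept their sign under the 75th percentile scaling, COX15 (-0.26) and EM4e (-0.13) among them, and ALDH1A1, CALML4, FCER1G, FLT3LG and GJB2 did not. Under cyclic loess 16 kept it. The cause was not tested. Dim probes such as GJB2, SELP and LOC443442 were limited by signal over background.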
